A study of Mus musculus with 16 samples.

Results

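The open chromatin described here is that around 8 genes of the Slc22 family of organic ion transporters, Slc22a3, Slc22a5, Slc22a7, Slc22a18, Slc22a23, Slc22a27, Slc22a28 and Slc22a30, in mouse liver. DNase-seq locates open chromatin as DNase hypersensitive sites (DHS), stretches where DNase I cuts nuclear DNA often, and a DHS was assigned to a gene when it overlapped the gene or lay within 20 kb of either end of it. Peaks of 4 DHS lists were joined into 1 region where they overlapped by at least 1 bp, which gave 40 regions at the 8 genes out of 51482 regions in the genome. Liver nuclei came from males and females of the laboratory strain C57BL/6J (B6), the source of the mouse reference genome, and of CAST/EiJ (CAST), a wild-derived inbred strain of a different subspecies. All mice were 8 weeks old with no treatment or altered gene named in the labels, and their nuclei were digested with 32 U of DNase I. There were 16 libraries, 4 for each sex and strain, and the 4 libraries of a group were merged before DHS were called. Each group was therefore represented by 1 list, there was no replicate error, and no difference below was tested.

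Slc22 proteins are membrane carriers that move organic cations, organic anions or zwitterions such as carnitine into or out of cells. In hepatocytes they take up drugs, endogenous metabolites and carnitine from the blood, and many of the genes arose by tandem duplication, so that close paralogs lie side by side. Open chromatin marks promoters, enhancers and other elements that proteins occupy, but a DHS near a gene need not act on that gene.

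The lists held 24888 to 39562 peaks, with fewer in each female list than in the male list of its strain. Depth was recovered from the deposited scores as the genome-wide background, in overlapping fragments per position, and it was 15.4 for B6 males, 13.9 for B6 females, 14.3 for CAST males and 7.94 for CAST females. At that background a peak needed a fold enrichment of about 1.90 to 1.94 to enter 1 of the 3 deeper lists and 2.24 to enter the CAST female list. Fold enrichment is the summit pileup over the local background, each with 1 added. The liver label was compared with marker genes as DHS within 2.5 kb of a start site: 7 of 8 hepatocyte markers had one in every list, none of the 4 Kupffer cell, 3 stellate cell and 4 kidney tubule markers had one in any list, and 1 of 3 bile duct markers had one in every list. Of the 4 endothelial markers, 4 had a DHS in B6 males, 2 in B6 females and 1 in each CAST list. The part of non-hepatocyte nuclei in the results below was not tested.

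The 40 regions lay at 5 of the 8 genes. Slc22a23 had 20, Slc22a18 had 7, Slc22a5 had 6, Slc22a7 had 4 and Slc22a3 had 3, whereas Slc22a27, Slc22a28 and Slc22a30 had 0 in all 4 lists. Of all 22380 protein-coding genes, 25.1% had no region within 20 kb. The B6 male list held 28 of the regions, B6 females held 20, CAST males held 33 and CAST females held 21. Of the 40, 14 lay within 2.5 kb of the start site of some protein-coding gene, and 31 had a member of the 8 as the gene with the nearest start site. The regions were of ordinary strength, with median fold enrichments of 3.12, 3.04, 3.34 and 3.69 in B6 males, B6 females, CAST males and CAST females, compared with 3.49, 3.28, 3.74 and 4.06 over all peaks of those lists. Peaks at the genes were 239 to 1826 bp wide.

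**Figure D1:**
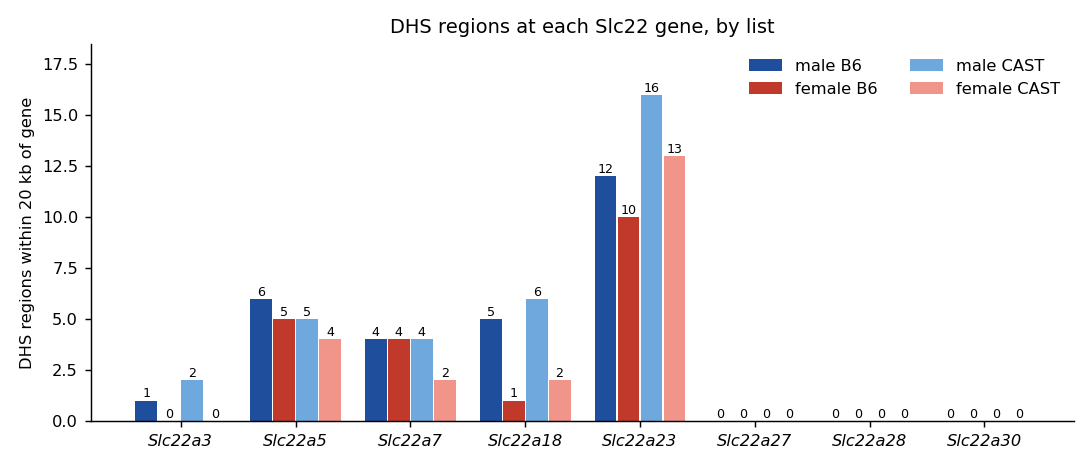
Number of DHS regions within 20 kb of each of the 8 Slc22 genes (vertical axis) in each of the 4 pooled lists (bars). Slc22a23 had 12, 10, 16 and 13 regions in B6 males, B6 females, CAST males and CAST females, and the 3 genes at the right had 0 in every list.

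Slc22a5 encodes Octn2, the high-affinity carnitine carrier that supplies cells with carnitine for the transport of fatty acids into mitochondria. It lies on the minus strand at chr11:53678044-53705162 (mm9, as are all coordinates here). Its start-site DHS (chr11:53705009-53705866) reached into the first coding exon and held the highest single value at the 8 genes. The fold enrichment was 9.87 in B6 males, 7.29 in B6 females, 9.52 in CAST males and 7.91 in CAST females. It was high in all 4 lists, at the 89.7th percentile of its list or above, and was 706 to 848 bp wide.

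Between lists, fold enrichment was compared as a centred ratio: the ratio of 2 lists divided by its median over all regions shared by them, because fold enrichment as a whole ran higher in some lists. The median ratio was 1.32 for males over females in B6, 1.19 for males over females in CAST, 1.06 for CAST over B6 in males and 1.19 for CAST over B6 in females. Intervals are 95% intervals for the counting error of the recovered summit pileups only. At the Slc22a5 start site the centred male to female ratio was 1.03 (0.854 to 1.23) in B6 and 1.01 (0.823 to 1.24) in CAST. The CAST to B6 ratio was 0.914 (0.788 to 1.06) in males and 0.914 (0.724 to 1.15) in females. All 4 intervals held 1, and none reached 1.5.

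Upstream of Slc22a5 lay 4 further DHS, and 1 lay 2.39 kb inside the gene. The DHS 19.5 kb upstream (chr11:53724306-53725061, intergenic) had a fold enrichment of 6.50 in B6 males, 4.76 in B6 females and 2.49 in CAST males, and was not in the CAST female list. It was strong in both B6 lists and weak or unlisted in both CAST lists. In males it was 2.75-fold higher in B6 than in CAST after centring (CAST to B6 ratio 0.363, interval 0.254 to 0.519), which placed it at the 0.162th percentile of all regions shared by the male lists. With summit pileups divided by the genome-wide background it was 4.31-fold higher in B6, outside that interval, and its local background was 24.5 in B6 males and 14.3 in CAST males. In females the estimated lower bound on the ratio of B6 to CAST was 2.77-fold, or 2.24 at the low end of the counting interval of the B6 peak. That bound sets the B6 value against the listing limit of 2.05, the fold enrichment at which the CAST female list would have listed the region given its local background in B6. At the genome-wide background of CAST females that limit would be 2.24 and the bound lower. Between the sexes of B6 the same region differed little, with a male to female ratio of 1.03 (0.801 to 1.33). A neighbour 17.4 kb upstream was in the B6 male list alone, with a fold enrichment of 3.21. Against an estimated listing limit of 1.66 in CAST males, the bound on the centred B6 to CAST ratio was 2.04 (1.67 at the low end of its counting interval). At the genome-wide background of CAST males that limit would be 1.90, which lowers the bound. The low end was then not shown to stay past 1.5-fold. Over B6 females the estimated lower bound on the centred ratio was 1.44 (1.17 at the low end).

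The start-site sequence and that of the DHS with the large strain ratio are shown, each as 201 bp around the summit of the list with the highest fold enrichment, from the plus strand of the mm9 reference, which is a B6 genome. Capitals, here and below, mark the letters of any of 7 motifs that were searched, and these stretches held none of them.
Slc22a5 start site, chr11:53705295-53705495: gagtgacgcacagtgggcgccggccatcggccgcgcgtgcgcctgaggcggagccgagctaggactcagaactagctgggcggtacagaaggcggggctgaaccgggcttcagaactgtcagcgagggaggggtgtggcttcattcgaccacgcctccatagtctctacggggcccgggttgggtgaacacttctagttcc
Slc22a5 19.5 kb upstream, chr11:53724591-53724791: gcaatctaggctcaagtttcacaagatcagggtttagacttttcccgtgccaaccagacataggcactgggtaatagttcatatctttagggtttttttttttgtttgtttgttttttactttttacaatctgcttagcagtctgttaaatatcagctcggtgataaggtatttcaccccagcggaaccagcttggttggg
The start-site stretch had a GC content of 65.2% and the upstream stretch 40.3%.

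The 3 remaining Slc22a5 DHS were in all 4 lists. The DHS 12.6 kb upstream had fold enrichments of 6.29, 3.80, 5.94 and 6.32 in B6 males, B6 females, CAST males and CAST females, and the one 11.5 kb upstream, which overlaps 2 non-coding genes, had 4.17, 2.2, 4.53 and 3.84. Both were lowest in the B6 female list. Their male to female ratios in B6 were 1.26 (0.957 to 1.65) and 1.44 (0.996 to 2.08), those in CAST were 0.790 (0.599 to 1.04) and 0.990 (0.698 to 1.40), and all 4 intervals held 1. The CAST to B6 ratios in females were 1.40 (1.02 to 1.93) and 1.47 (0.959 to 2.26), and the second was 1.57, past 1.5-fold, when summit pileups were divided by the genome-wide background instead. The intronic DHS at 2.39 kb had fold enrichments of 2.91 to 3.83.

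Slc22a3 encodes Oct3, a low-affinity carrier of organic cations and monoamines. Its start-site DHS (chr17:12700224-12700597, non-coding part of the first exon) was in the CAST male list alone, with a fold enrichment of 2.82. This was 42 overlapping fragments at the summit over a background of 14.3. The estimated listing limit was 1.90 in B6 males, so that the lower bound on the CAST to B6 ratio in males was 1.41, or 1.02 at the low end of the counting interval. In CAST the lower bound on the male to female ratio was 1.06, or 0.770 at that low end, so a difference between the sexes was not detectable at this depth. The other 2 regions lay in the last part of the gene or beyond it, 86.3 kb and 93.6 kb from the start site, and each was in a single male list, with fold enrichments of 2.12 in B6 and 2.08 in CAST. The farther one lies in an intron of Plg, the plasminogen gene. Neither female list held a DHS within 20 kb of Slc22a3.

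Slc22a7 encodes Oat2, an organic anion transporter of the sinusoidal membrane of hepatocytes. Its start-site DHS (chr17:46575165-46576022) had a fold enrichment of 6.80 in B6 males, 5.28 in B6 females, 9.33 in CAST males and 8.11 in CAST females. Both CAST lists were above both B6 lists. The centred CAST to B6 ratio was 1.30 (1.08 to 1.56) in males and 1.30 (0.992 to 1.69) in females, below the 1.5-fold used here as a call in both sexes. The male to female ratios were 0.978 (0.767 to 1.25) in B6 and 0.966 (0.782 to 1.19) in CAST. When summit pileups were instead divided by the genome-wide background, the CAST to B6 ratio was 1.93 in males and 1.53 in females, past 1.5-fold in both. The local background of this DHS was 35.2 in CAST males and 25.7 in B6 males. Its sequence is shown because it had the largest strain ratio of the start-site DHS in all 4 lists.
Slc22a7 start site, chr17:46575484-46575684: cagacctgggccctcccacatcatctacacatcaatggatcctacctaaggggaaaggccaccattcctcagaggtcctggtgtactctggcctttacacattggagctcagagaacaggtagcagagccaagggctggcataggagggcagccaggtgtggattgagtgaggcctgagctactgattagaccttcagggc

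The other 3 DHS at Slc22a7 were weaker. The DHS 14.6 kb upstream, in an intron of Ttbk1, had fold enrichments of 4.26, 2.56, 4.51 and 3.08 in B6 males, B6 females, CAST males and CAST females. It was the widest region at the 8 genes, with peaks of 1335, 1162, 1826 and 1191 bp and summits up to 692 bp apart. It was higher in the male list in both strains, with centred ratios of 1.26 (0.920 to 1.73) and 1.23 (0.894 to 1.69), and both intervals held 1. With summit pileups divided by the genome-wide background the ratio was 1.31 in B6 and 1.61 in CAST, the second past 1.5-fold. A DHS 16.9 kb upstream and one 1.43 kb inside the gene were in every list except CAST females, at fold enrichments of 3.01 to 3.23 and 1.94 to 2.06. The outer one was higher in females in B6, with a centred male to female ratio of 0.706 (0.519 to 0.960). With summit pileups divided by the genome-wide background that ratio was 0.772. Against the estimated limit of 2.03 in CAST females, the lower bound on the centred ratio of B6 to CAST in females was 1.89 for the outer one, or 1.47 at the low end of its counting interval. The inner one was at the 4.19th percentile or below in each list that held it, and its absence from CAST females was not interpretable, since the estimated limit there was 2.09.

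**Figure D2:**
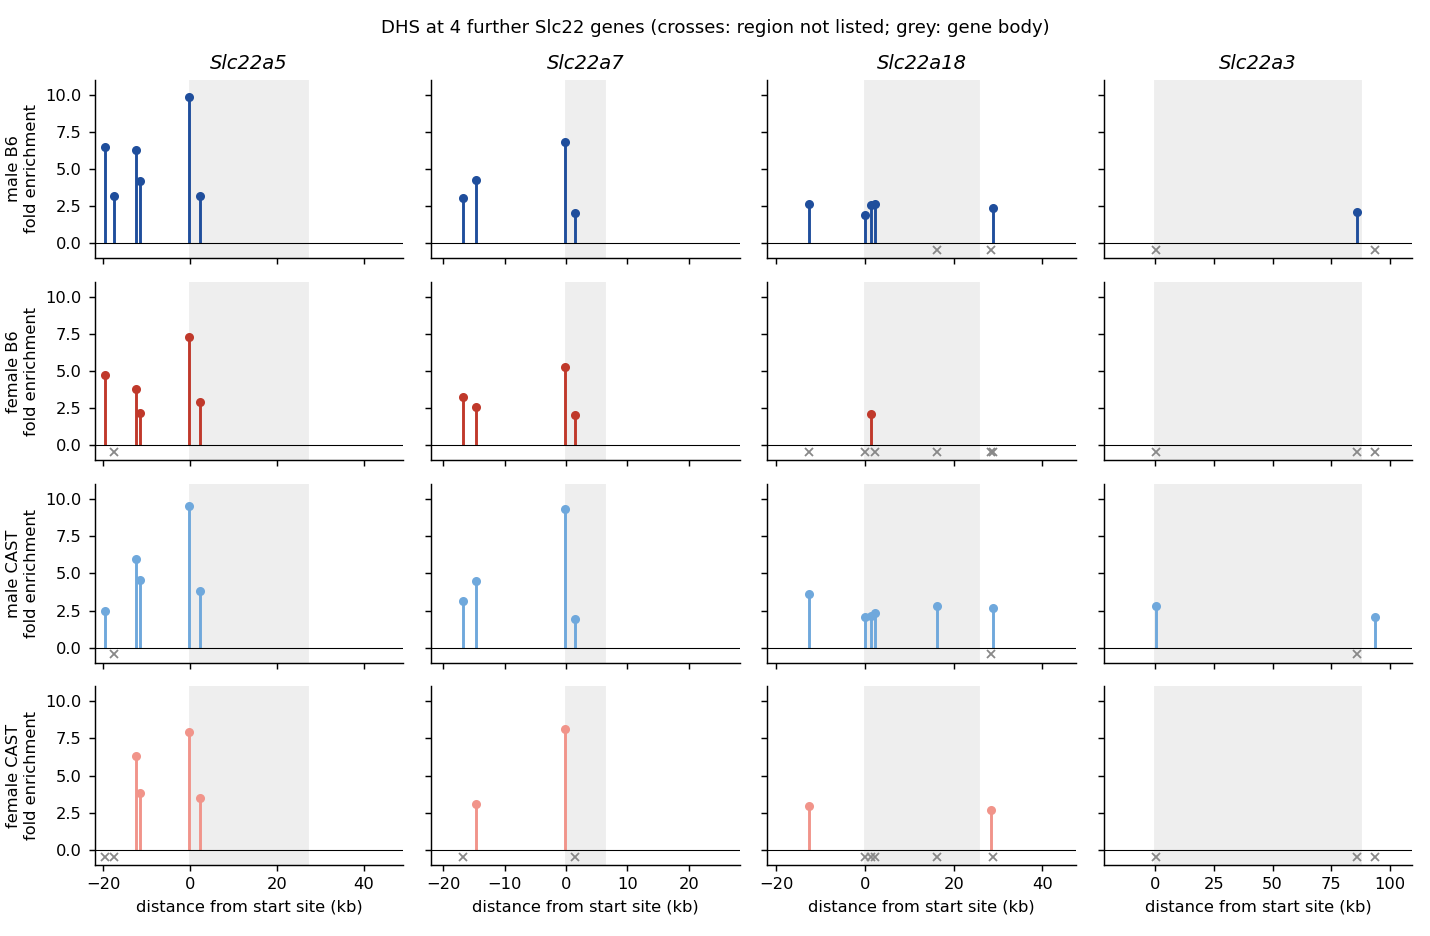
Fold enrichment at the summit (vertical axes) against distance from the start site of Slc22a5, Slc22a7, Slc22a18 and Slc22a3 in the direction of transcription (kb, horizontal axes), with 1 row per list. Stems are listed regions, crosses are regions found in another list only and grey marks the gene body. The start-site stems of Slc22a5 and Slc22a7 stand between 5.28 and 9.87 in all 4 lists, and all regions of Slc22a18 and Slc22a3 are at 3.64 or lower.

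Slc22a18 encodes a transporter-like protein and lies in an imprinted domain, in which one parental copy of a gene is silent. Its neighbours Cdkn1c, a cyclin-dependent kinase inhibitor, and Phlda2, a regulator of placental growth, fall within its window. Slc22a18 had 7 regions and none was in all 4 lists. The strongest (chr7:150646460-150647200) lay at the Cdkn1c start site, with fold enrichments of 2.66 in B6 males, 3.64 in CAST males and 2.98 in CAST females, and was not in B6 females. At the outermost start site of Slc22a18 itself the DHS (chr7:150659519-150660245) was in the male lists alone, at 1.89 in B6 and 2.05 in CAST. These are among the lowest values of their lists, at the 1.36th and 3.43th percentile, and with all lists scaled to 1 depth this DHS was in CAST males alone. With a reciprocal overlap of 50% its 2 peaks, 255 bp in B6 males and 664 bp in CAST males, were counted apart.

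Of the regions at the 8 genes found in both male lists but neither female list, 3 of 5 were at Slc22a18. Besides the start site they were a DHS 2.36 kb inside the gene (2.65 in B6 and 2.33 in CAST) and one at the start of Phlda2 (2.36 and 2.66). Male and female lists differ in depth and enrichment, and set against the estimated female listing limits the estimated lower bounds on the centred male to female ratios of the 3 were 0.800 to 1.15 in B6 and 0.860 to 1.04 in CAST. No upper bound can be given. A sex difference at these 3 DHS was therefore not detectable at this depth. Between males the CAST to B6 ratios were 1.03 (0.689 to 1.53), 0.833 (0.586 to 1.19) and 1.07 (0.699 to 1.63). Another 3 regions were the DHS at the other Slc22a18 start site, in both B6 lists and CAST males at 2.1 to 2.55, 1 in CAST males at 2.82 and 1 in CAST females at 2.70. The summit windows of the 3 male DHS overlap annotated exons and are named only.

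Slc22a23 encodes an orphan member of the family, whose substrate is not established, and it is the longest of the 8 genes (chr13:34271027-34437051, minus strand). Its 20 regions came to 9.71 per 100 kb of window, close to the 10.7 of Slc22a18, 8.94 of Slc22a5 and 8.64 of Slc22a7 and above the 2.35 of Slc22a3. Its start-site DHS (chr13:34436566-34437479) was in all 4 lists, at 4.79 in B6 males, 3.59 in B6 females, 4.28 in CAST males and 3.97 in CAST females. Its 4 centred ratios lay between 0.848 and 1.01. The strongest region of the window, at 7.36 to 9.58, was at the start site of the neighbouring gene Psmg4, a proteasome assembly chaperone, 182 kb from the Slc22a23 start site.

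**Figure D3:**
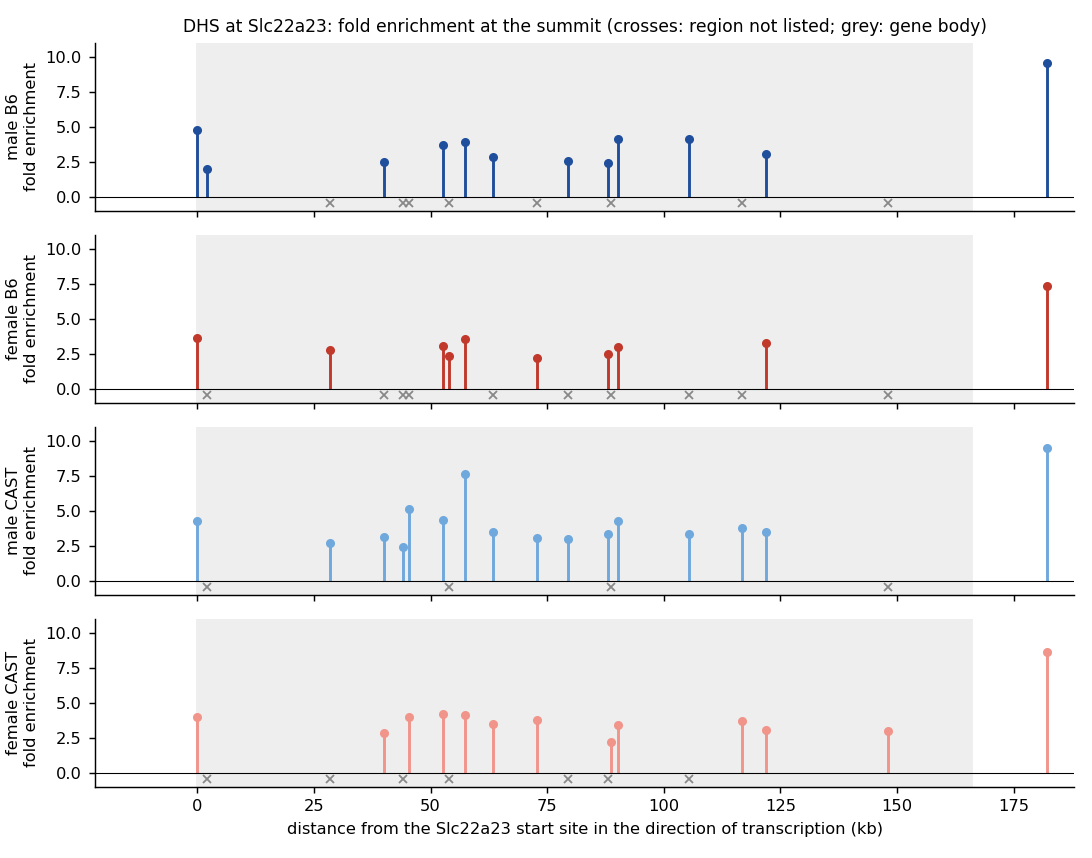
Fold enrichment at the summit (vertical axes) against distance from the Slc22a23 start site in the direction of transcription (kb, horizontal axis), with 1 panel per list. Stems are listed regions, crosses are regions found in another list only and grey marks the gene body. The stems at 45.3 kb and 117 kb are in the CAST panels alone, those at 79.4 kb and 105 kb in the male panels alone, and the stem at 57.3 kb is tallest in CAST males, at 7.61.

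The 2 regions found in both CAST lists and in no B6 list were both in introns of Slc22a23. The DHS 45.3 kb from the start site (chr13:34391308-34391890) had fold enrichments of 5.13 in CAST males and 3.98 in CAST females, with summit pileups of 104 and 45 and summits 21 bp apart. The DHS 117 kb from the start site had 3.74 and 3.69, with pileups of 72 and 32 and summits 14 bp apart. Both were of middling strength and were placed alike in the sexes. Against the estimated B6 listing limits, the lower bound on the CAST to B6 ratio of the first was 2.74 in males and 1.81 in females, and that of the second 2.01 and 1.69. At the low end of the counting interval of each peak these were 2.24, 1.33, 1.58 and 1.18. On these estimates those in males stayed above 1.5-fold and those in females did not. The limits borrow the local background of CAST, and the B6 male limit was 1.77 for both DHS. At the genome-wide background it would be 1.90, which lowers the bounds, and the 1.58 was then not shown to stay above 1.5-fold. With only peaks above the median −log10 q of 15.7, both DHS were in the CAST male list alone. The sequence below, of the first, is of the mm9 reference and not of CAST, whose own bases at this place were not used here. It held none of the searched motifs, whereas the window of the second DHS held 1, named below.
Slc22a23 45.3 kb, CAST lists, chr13:34391634-34391834: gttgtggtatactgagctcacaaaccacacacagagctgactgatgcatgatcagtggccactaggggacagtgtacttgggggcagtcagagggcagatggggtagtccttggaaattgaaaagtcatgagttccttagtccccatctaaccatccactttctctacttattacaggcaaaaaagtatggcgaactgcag

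The remaining 2 regions in both male lists but neither female list were also in introns of Slc22a23. The DHS 105 kb from the start site (chr13:34331287-34332069) had fold enrichments of 4.12 in B6 males and 3.34 in CAST males, and the DHS 79.4 kb from it (chr13:34357338-34358189) had 2.55 and 3.0. For the first, the estimated lower bound on the centred male to female ratio was 1.70 in B6 and 1.32 in CAST, or 1.36 and 0.997 at the low end of the counting intervals. For the second the bounds were 1.05 and 1.22, or 0.769 and 0.931. Neither DHS was shown to be past 1.5-fold in either strain. Only the first was still in both male lists but neither female list when every list was reduced to its 24888 highest-scoring peaks, since the second then left the male lists. With only peaks above a −log10 q of 15.7 the first was in B6 males alone, and none of the 5 DHS was in both male lists. Neither sequence held a searched motif, and they are shown as the 2 male DHS whose windows are free of exons.
Slc22a23 105 kb, male lists, chr13:34331574-34331774: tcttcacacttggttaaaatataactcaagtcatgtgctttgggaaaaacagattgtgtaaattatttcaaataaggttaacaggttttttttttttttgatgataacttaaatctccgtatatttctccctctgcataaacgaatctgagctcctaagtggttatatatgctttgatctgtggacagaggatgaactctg
Slc22a23 79.4 kb, male lists, chr13:34357563-34357763: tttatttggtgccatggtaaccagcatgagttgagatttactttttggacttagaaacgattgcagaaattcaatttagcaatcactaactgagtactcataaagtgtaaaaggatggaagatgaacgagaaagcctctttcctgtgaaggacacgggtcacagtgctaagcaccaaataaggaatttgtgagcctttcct

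A DHS 57.3 kb from the Slc22a23 start site (chr13:34379290-34380028, intronic) was in all 4 lists, with fold enrichments of 3.93 in B6 males, 3.57 in B6 females, 7.61 in CAST males and 4.15 in CAST females. The CAST male value stood apart, and the other 3 lists lay close together. The centred ratio of CAST males to B6 males was 1.84 (1.48 to 2.28) and that of males to females in CAST 1.54 (1.17 to 2.03). The ratio of males to females in B6 was 0.834 (0.626 to 1.11) and that of CAST females to B6 females 0.979 (0.700 to 1.37), and both intervals held 1. Summit pileups were 116, 78, 281 and 61 fragments, in the same order. Whether the sex ratio differed between the strains was not tested. The sequence is shown for its match, in capitals, to TTCNNNGAA, the core of a site for STAT5, the transcription factor that relays growth hormone signals in the liver. The match lies outside the centre of the window.
Slc22a23 57.3 kb, chr13:34379628-34379828: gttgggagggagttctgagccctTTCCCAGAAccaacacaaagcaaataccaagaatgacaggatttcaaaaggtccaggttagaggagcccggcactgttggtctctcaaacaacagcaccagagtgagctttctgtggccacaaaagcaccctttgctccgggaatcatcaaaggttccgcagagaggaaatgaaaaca

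The other 13 regions of Slc22a23 included 3 more in all 4 lists, 52.7 kb, 90.1 kb and 122 kb from the start site, at fold enrichments of 3.0 to 4.37. The rest were in 1 to 3 lists, at 1.97 to 3.75. A DHS 72.8 kb from the start site was in every list except B6 males, at 2.17 in B6 females, 3.06 in CAST males and 3.75 in CAST females. In CAST it was higher in females, with a centred male to female ratio of 0.686 (0.478 to 0.985). It joins 2 peaks of B6 females, the stronger 495 bp wide, with peaks of 1199 bp in CAST males and 477 bp in CAST females, and summits lay up to 842 bp apart. With a reciprocal overlap of 50% it fell into 3 regions, 1 in B6 females, 1 in CAST males and 1 in both female lists alone. A DHS 28.4 kb from the start site was in B6 females at 2.77 and in CAST males at 2.70 and in neither of the other lists, and at that overlap its 2 peaks were counted apart.

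Slc22a27, Slc22a28 and Slc22a30 belong to a cluster of closely related organic anion transporter-like genes on chromosome 19 that is expanded in rodents. None of the 3 had a DHS within 20 kb in any list. The nearest region lay 61302 bp from Slc22a27, 119944 bp from Slc22a28 and 25876 bp from Slc22a30. In the 541 kb from one end of the 3 genes to the other there was 1 region of the 1921 on the chromosome, within Slc22a29 (chr19:8326416-8327383), and it was in B6 alone, with a fold enrichment of 2.57 in males and 7.70 in females. That DHS was 3.96-fold higher in females than in males of B6 after centring, from summit pileups of 114 and 41.

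Because only uniquely mapped reads were kept, the sequence of each window was examined for repetition. The share of 32-base words that occur once in the mm9 genome, on either strand, was 46.3% for the window of Slc22a27, 46.9% for Slc22a28 and 42.7% for Slc22a30, compared with 83.0% to 96.4% for the other 5 genes. Within 1 kb of the start sites it was 42.7%, 36.5% and 36.8%, compared with 85.7% to 100% for the others. The reads were paired and longer than 32 bases, so these shares can understate how much of a window could be mapped. The part of repetition in the absence of DHS was not tested. Reads from these windows can be fewer than elsewhere, and the absence of a DHS there does not show closed chromatin. Slc22a29 and Slc22a26, 2 other genes of the cluster, had shares of 50.3% and 56.5%, and Slc22a26 had 4 DHS, each in all 4 lists. Within 1 kb of its start site the share was 84.5%. For Slc22a29, whose window held 1 DHS, that share was 41.8%. Of the 16 other Slc22 genes, 2 also had 0 regions, Slc22a2 with a share of 86.4% (92.5% within 1 kb of its start site) and Slc22a19 with 66.0% (88.4%). Another 4 had 1 region each, Slc22a12 with 95.2%, Slc22a21 with 82.4%, Slc22a16 with 79.6% and Slc22a29.

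**Figure D4:**
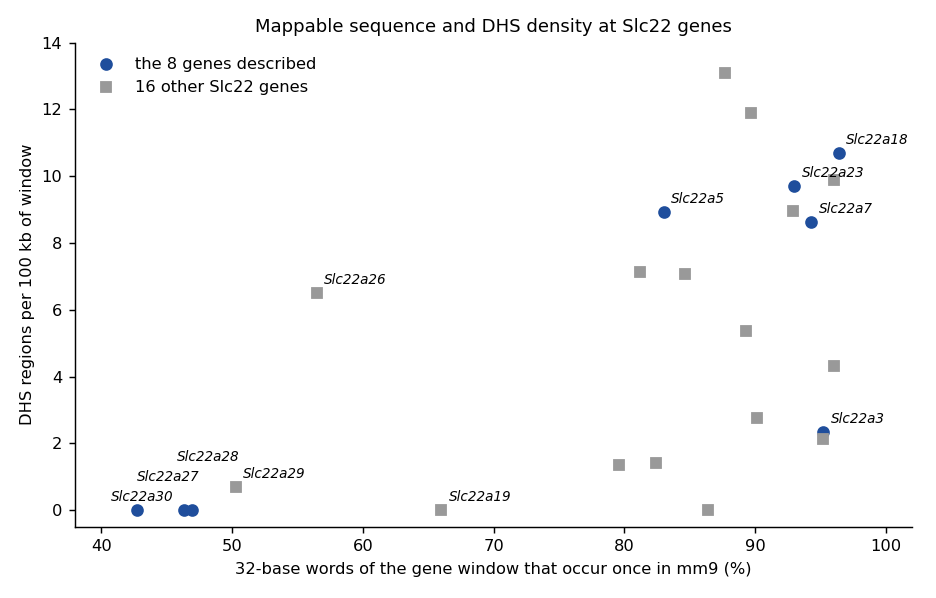
Number of DHS regions per 100 kb of window (vertical axis) against the percentage of 32-base words of the window that occur once in mm9 (horizontal axis), for the 8 genes described (circles) and 16 other Slc22 genes (squares). Slc22a27, Slc22a28 and Slc22a30 sit at 42.7% to 46.9% with 0 regions, and the other 5 genes described sit at 83.0% or higher with 2.35 to 10.7 regions per 100 kb. Among the squares Slc22a2 sits at 86.4% with 0 regions, and Slc22a12 (95.2%) and Slc22a21 (82.4%) have 1 region each.

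The 16 other family members serve as a measure of how the 8 genes stand within the family. They had 41 regions at 14 genes, and Slc22a2 and Slc22a19 had 0. Of these 41 regions 24 were in all 4 lists, a larger part than the 12 of 40 at the 8 genes and than the 35.6% of all regions. Of the rest 5 were in both male lists alone, 0 in both female lists alone, 1 in both B6 lists alone, 1 in both CAST lists alone and 7 in a single list. In the same order, the shares of all regions were 9.38%, 0.0622%, 3.32%, 3.62% and 35.2%. These differences were not tested. By list the counts were 36, 25, 37 and 28 in B6 males, B6 females, CAST males and CAST females.

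Over the 4 lists together, 12 of the 40 regions at the 8 genes (30.0%) were in all of them, compared with 35.6% of all regions. The 12 were 4 at Slc22a5, 2 at Slc22a7 and 6 at Slc22a23. Their summits in different lists lay a median of 120 bp apart, with a range from 17 to 692 bp. A further 11 (27.5%) were in 1 list, compared with 35.2%, and 17 were in 2 or 3 lists. The 5 in both male lists but neither female list were 12.5% of the regions, compared with 9.38% of all regions, and the 2 in both CAST lists alone were 5.0%, compared with 3.62%. No region was in both female lists alone, where the background was 0.0622%, or in both B6 lists alone, where it was 3.32%. These shares were near those of the genome.

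The sexes were compared within each strain to find open chromatin that is specific to a sex. In B6, 11 of 31 regions (35.5%) were in the male list alone and 3 (9.68%) in the female list alone, compared with 36.4% and 5.13% of all B6 regions. In CAST, 15 of 36 (41.7%) were male alone and 3 (8.33%) female alone, compared with 40.3% and 3.90%. The male shares were near those of the lists as a whole, and the female shares were above them on 3 regions in each strain. For regions female alone, the estimated lower bound on the centred female to male ratio was 1.66 to 1.94 in B6. It was 1.47 to 1.83 in CAST. For regions male alone, the bound on the male to female ratio was 0.800 to 1.70 in B6 and 0.781 to 1.38 in CAST. At the low end of the counting intervals the highest of all these bounds was 1.41. Of the 17 regions shared by the sexes in B6, 0 were past 1.5-fold in either direction, compared with 2.62% of all shared regions higher in males and 2.60% higher in females. Of the 18 shared in CAST, 1 was higher in males, the Slc22a23 DHS at 57.3 kb, compared with 3.31% of all, and 0 were higher in females, compared with 2.56%. The median centred log2 ratio was -0.03 in B6 and -0.08 in CAST.

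The strains were then set against each other, sex by sex. In males, 8 of 36 regions (22.2%) were in CAST alone and 3 (8.33%) in B6 alone, compared with 20.9% and 19.1% of all regions, and the share in B6 alone lay below its background. In females, 8 of 28 (28.6%) were in CAST alone and 7 (25.0%) in B6 alone, compared with 18.3% and 22.6%. Of the 25 regions shared by the male lists, 1 was past 1.5-fold higher in CAST, again the Slc22a23 DHS at 57.3 kb, and 1 higher in B6, the Slc22a5 DHS 19.5 kb upstream, compared with 6.68% and 4.49% of all shared regions. Of the 13 shared by the female lists, 0 were past 1.5-fold, compared with 4.97% higher in CAST and 3.42% higher in B6. The median centred log2 ratio was 0.04 in males and 0.01 in females. Of the 12 regions in all 4 lists, 0 were past 1.5-fold the same way in both strains or in both sexes. With summit pileups divided by the genome-wide background it was 1, the Slc22a7 start-site DHS, higher in CAST in both sexes. The share of all regions in 4 lists that met this rule was not computed, so neither count is set against the genome. The sex comparisons and the strain comparisons use the same 4 lists.

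**Figure D5:**
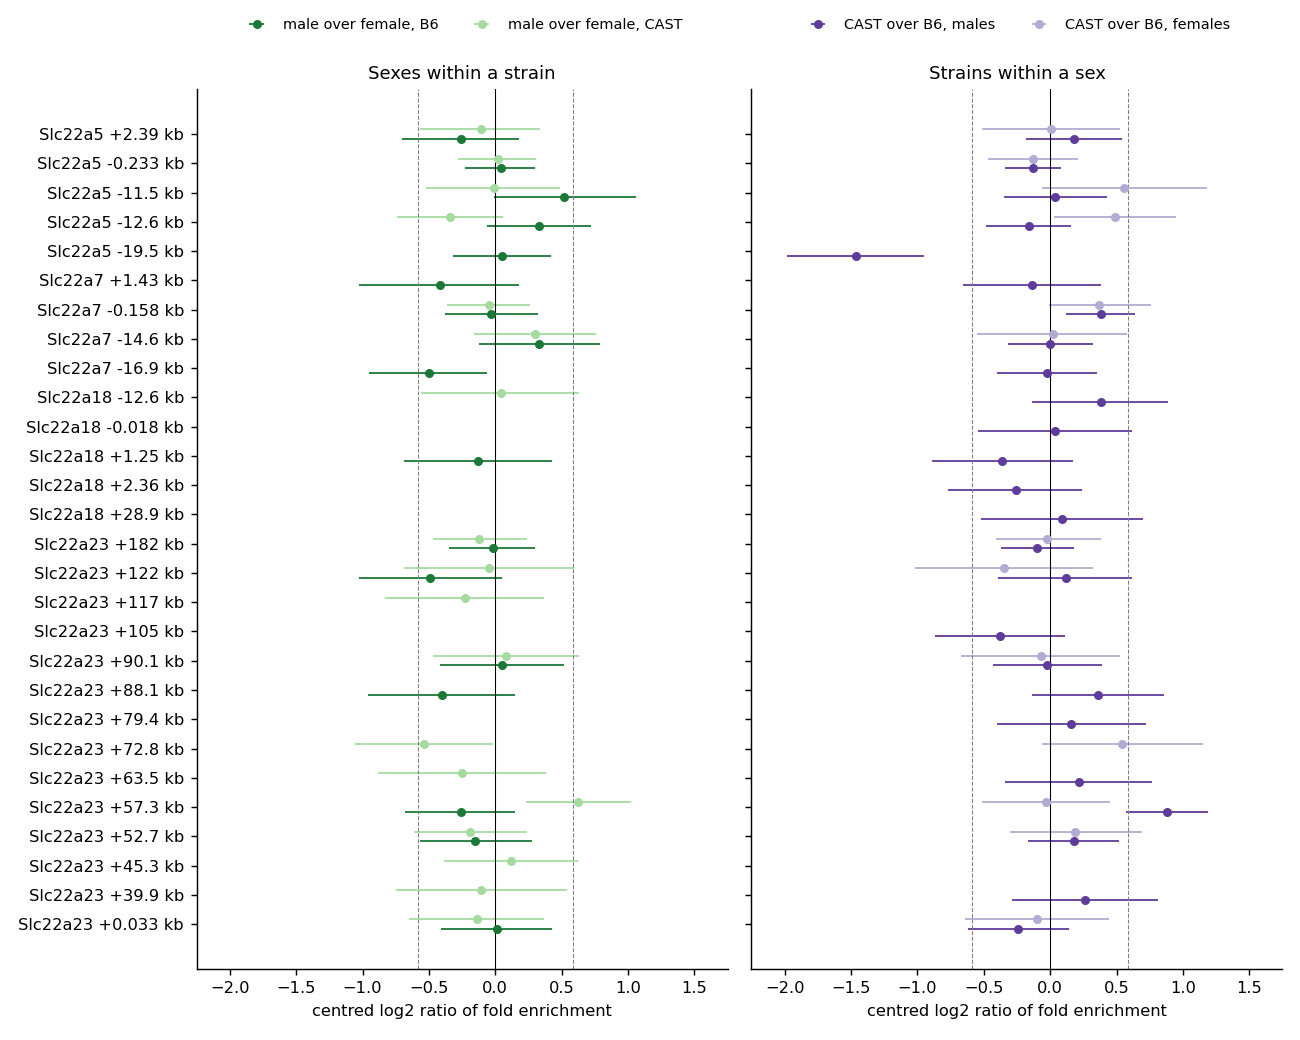
Centred log2 ratio of fold enrichment (horizontal axes) for each region at the 8 Slc22 genes that is in both lists of a comparison (rows), between the sexes at left and the strains at right. Bars are 95% intervals for counting error only and dashed lines mark 1.5-fold. The Slc22a5 DHS 19.5 kb upstream lies at -1.46 for CAST over B6 in males and the Slc22a23 DHS at 57.3 kb at 0.88, and all other points lie inside the dashed lines except that of the latter DHS for males over females in CAST, at 0.62.

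For sequence features that the choice of genes did not use, 7 motifs of liver transcription factors were searched on both strands within 100 bp of each summit. The STAT5 core TTCNNNGAA was in 2 of the 40 regions, compared with 7.02% of all regions. Both were in Slc22a23, the DHS at 57.3 kb shown above and the DHS at 117 kb that was in both CAST lists alone. The nuclear receptor element AGGTCA was in 4 (17.4% of all), the C/EBP site TTGCNNCAA in 1 (1.78% of all) and the HNF4 site CAAAGTCCA in 1 (1.07% of all). The HNF4 match was in the Slc22a5 DHS 17.4 kb upstream that was in B6 males alone, and its sequence is shown for that match.
Slc22a5 17.4 kb upstream, B6 males, chr11:53722489-53722689: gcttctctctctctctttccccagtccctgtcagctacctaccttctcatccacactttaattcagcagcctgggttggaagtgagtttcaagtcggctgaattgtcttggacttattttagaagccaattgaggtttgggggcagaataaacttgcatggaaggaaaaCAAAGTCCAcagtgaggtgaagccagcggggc
The forkhead motif TGTTTAC (4.47% of all), the HNF1 element GTTAAT (7.10% of all) and the core ATCGAT shared by CUX2 and HNF6 (1.22% of all) were in 0 of the 40. A match describes letters of the reference and is not evidence of binding, and 0 matches say only that these letters were not within these windows.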

How the data were processed

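Nuclei of 16 livers, 4 per sex and strain, were profiled by DNase-seq, and groups follow the titles of the libraries. The authors kept reads that Bowtie2 placed uniquely, from B6 on mm9 and from CAST on mm9 carrying known CAST variants, with coordinates then converted back, merged the libraries of each group, called DHS with MACS2 and removed blacklisted regions and peaks of duplicated reads. The deposited values per peak are the ratio of summit pileup to local background (fold enrichment), the −log10 p-value and −log10 q-value, and the summit position. Because the lists are pooled, no model or test was run and depth is not stated in them. Pileup and background were recovered from the fold enrichment and the p-value together, as whole numbers within 0.02 for 99.9% to 100% of peaks. The listing limit used the local background of the list with the strongest peak, scaled by the genome-wide backgrounds, and is an estimate. Where the list without the peak had a lower local background, its limit would be higher and the bound lower.

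Gene bounds and exons came from the GENCODE annotation of mm9, and regions that overlap an annotated exon at their summit window were not printed as sequence. Sequences are printed for 8 regions, and those of the others are not reported here. The text describes, for each gene, the region nearest its start site, its strongest region, regions in both lists of 1 sex or 1 strain alone and regions in all 4 lists past 1.5-fold the same way in both strains or sexes, and gives other regions by count and range. The Slc22a5 DHS 19.5 and 17.4 kb upstream, the Slc22a23 DHS at 57.3, 28.4 and 72.8 kb and the other Slc22 genes named were added after their values were seen. The genes, lists and motifs were chosen with earlier results of these data known. Alternatives were a reciprocal overlap of 50%, only peaks above a −log10 q of 15.7, lists of equal size, lists scaled to 1 depth (background 7.94), a 10 kb window, other centring and pileup over genome-wide background. Joining, recovery and word counting were tested on simulated data, and peaks per window were the same with bedtools 2.31.1. Python 3.11.15, pandas 2.3.3, numpy 2.4.6, scipy 1.17.1 and matplotlib 3.10.9 were used.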

Additional observations from a re-analysis of the deposited data

Results flagged for a closer look

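The intronic Slc22a23 DHS 28.4 kb from the start site (chr13:34408373-34409349) was in opposite sexes of the strains. It was in B6 females with a fold enrichment of 2.77 and in CAST males with 2.70, and was not in B6 males or CAST females. The difference between the strains was not tested. Summit pileups were 42 and 44, and the summits lay 91 bp apart. Against the estimated listing limits of 1.88 in B6 males and 2.26 in CAST females, the estimated lower bound on the centred ratio was 1.94 for females over males in B6 and 1.0 for males over females in CAST, or 1.41 and 0.736 at the low end of the counting intervals, so that neither was shown to be past 1.5-fold. With lists of equal size the DHS was in B6 females alone.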

How the results depend on the processing

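No paired analysis was possible because the 4 libraries of each group were pooled into 1 list before deposit, and a replicate could not be left out either. With only peaks above the median −log10 q of 15.7, the regions at the 8 genes were 15 in B6 males, 7 in B6 females, 17 in CAST males and 6 in CAST females. Of these 5 were in all 4 lists, 1 in both B6 lists alone and 0 in both CAST lists alone. With lists of equal size there were 16 in B6 males and 20 in CAST males, with 1 in both male lists alone, 1 in both B6 lists alone and 4 in both CAST lists alone. With a reciprocal overlap of 50%, 1 region was in both female lists alone, a piece of the Slc22a23 DHS at 72.8 kb, and both male lists alone held 4, without the Slc22a18 start-site DHS. These moves follow from fewer peaks or finer joining. The stricter threshold also gave 5 in both male lists alone, but 0 of them were among the 5 reported. With all lists scaled to 1 depth, 12 regions were in all 4 lists, 5 in both male lists alone and 2 in both CAST lists alone, of which 12, 4 and 2 were the reported ones. The Slc22a18 start-site DHS left that male group, and the Slc22a7 DHS 1.43 kb inside the gene entered it. The median centred log2 ratios lay between -0.15 and 0.30 over all alternatives, and the highest was that of pileup over the genome-wide background for CAST over B6 in males. With that scaling the shared regions past 1.5-fold were 0 up and 2 down for males over females in B6 (3.41% and 8.32% of all shared regions), 2 up and 0 down in CAST (4.24% and 7.01%), 2 up and 2 down for CAST over B6 in males (11.6% and 7.93%) and 3 up and 0 down in females (8.68% and 6.63%). The 2 DHS called with fold enrichment were called with it too, and of the 12 regions in all 4 lists 1 was past 1.5-fold the same way in both sexes, against 0. Restricting to regions nearest a start site of the 8 genes, chosen after seeing the data, gave 22, 17, 26 and 17. In all, 52 of the recomputed values stayed within 1.5 times the reported count or within the counting error of a ratio and 13 did not. A second mm9 annotation was not run. Depth was lowest in CAST females, where a fold enrichment under 2.24 at the genome-wide background could not be listed.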

Other observations

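The 4 DHS of Slc22a26, an organic anion transporter-like gene beside Slc22a27 on chromosome 19, were in all 4 lists. The share of 32-base words that occur once in mm9 was 56.5% for its window and 84.5% within 1 kb of its start site. At the one 27.2 kb from its start site (chr19:7849529-7850299) the fold enrichment was 4.34 in B6 males, 3.35 in B6 females, 8.98 in CAST males and 4.70 in CAST females, a centred CAST to B6 ratio of 1.96 in males and 1.18 in females and a male to female ratio of 1.61 in CAST and 0.982 in B6. At the one 37.0 kb from its start site the values were 3.49, 2.68, 5.84 and 5.93, and the CAST to B6 ratio was 1.59 in males and 1.86 in females. At the one 13.7 kb from its start site they were 4.28, 2.95, 6.62 and 5.82, with CAST to B6 ratios of 1.47 and 1.66. At its start-site DHS they were 5.56, 3.68, 5.44 and 5.48, with ratios of 0.927 and 1.25. Of all shared regions, 6.68% in males and 4.97% in females were past 1.5-fold higher in CAST. In CAST 3.31% were past 1.5-fold higher in males. No test was possible with 1 list per group.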
